A study of Homo sapiens with 6 samples.

Results

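The genes described here are the histone genes of the replication-dependent clusters, named HIST1, HIST2, HIST3 and HIST4 in the deposited table, as read in poly(A)-selected RNA. They were chosen by symbol alone, and 73 of the 26364 genes in the count table carried such a symbol. A total of 32 of them had at least 10 counts summed over the 6 libraries and are the members followed below. Of the other rows, 21 had 1 to 9 counts and 20 had 0 counts in every library. At the edge of that rule, HIST1H2BI and HIST1H2BK had 10 counts each and HIST1H2AD had 9.

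Replication-dependent histone genes supply the core histones H2A, H2B, H3 and H4 and the linker histone H1 that package newly made DNA, and they are transcribed mainly in S phase under the coactivator NPAT. Their typical messenger RNA has no introns and no poly(A) tail, and ends just after a short stem-loop that is bound by the protein SLBP. Some of these genes also yield polyadenylated transcripts that run past the stem-loop, a form often seen in cells that have left the cycle or have differentiated. A library made by selecting poly(A) tails therefore samples the tailed form, and a low count does not measure how much stem-loop-ended RNA a cell holds.

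The cells were Ishikawa, an estrogen-responsive line from an endometrial adenocarcinoma. The parental line and 2 knockout clones of the gene for the ETS-family transcription factor ETV4 (ETV4 KO clone 1 and ETV4 KO clone 2) had each been given the vehicle, 0.1% DMSO, or 10 nM 17β-estradiol (E2). All lines had first been kept in medium depleted of hormones, and each line gave 1 library per treatment. The treatment lasted 8 h by the protocol but 1 h by the sample characteristics. Each clone is 1 line, the parental line has 1 library per treatment, and genotype cannot be told apart from anything else in which a clone differs from its parent. The labels do not say that libraries came from separate cultures of a line, so p-values measure only the spread between these 6 libraries.

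The stem-loop is shown because it marks the site at which the tail-less form ends. In GENCODE v29 transcripts it was found in 13 of the 32 members, in 18 of the 41 rows under 10 counts, and in 63 of all 206694 annotated transcripts (0.0305%). In each of these 13 members the annotated transcript ran on past the stem-loop, by 39 to 1917 bases (median 1022), so the annotation itself holds a longer form. Transcripts of the 18 rows under 10 counts also ran past it, by 6 to 1862 bases (median 599.5), so such an extension is not particular to the members. The shortest, 6 bases in HIST1H4J and 8 in HIST3H3, need not be a longer form. The members fell into 3 groups by the stem-loop itself, with 6 H2A and H2B genes sharing one form, 3 H2B genes another and 4 H4 genes a further one. One example of each, with the stem-loop in capitals and 7 flanking bases on both sides, is given 5′ to 3′ from the GENCODE v29 transcripts.
HIST2H2BE: ctccaaaGGCTCTTTTCAGAGCCacccacc
HIST1H2BD: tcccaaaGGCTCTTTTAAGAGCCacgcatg
HIST1H4H: aaccaaaGGCCCTTTTCAGGGCCgcccact
The members with a stem-loop in an annotated transcript held 52.6% of the members' counts. Those without one included HIST1H1C, whose annotated transcript spans 642 bases and which alone held 32% of the counts. The longest annotated transcript had a median of 393 bases in members without a stem-loop match and 1668 bases in members with it. An annotation that stops short of the stem-loop cannot show it, so a missing match does not mean that a gene lacks it.

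Promoters are shown for genes on which the results turn, HIST1H1C and HIST1H2AC for the change with E2 in the parental line and HIST1H2AG for its 0 counts in the clones. RefSeq promoters (250 bases before to 50 after the start, GRCh38.p14) were matched for 29 of the 32 members. The TATA box TATAAA, searched on both strands, was present in 19 of the 29 (65.5%), against 11.5% of 35116 promoters in the same table. The CCAAT box CCAAT was present in 24 (82.8%), against 34.6% of all promoters, and in 0 of the 5 H4 promoters. The octamer ATTTGCAT was present in 14 (48.3%), against 1.77%, and these were 6 of 8 H2A and 8 of 11 H2B promoters. Motifs on either strand are in capitals, and a match describes the letters, not a bound site.
HIST1H1C (chr6:26056421-26056720, minus strand): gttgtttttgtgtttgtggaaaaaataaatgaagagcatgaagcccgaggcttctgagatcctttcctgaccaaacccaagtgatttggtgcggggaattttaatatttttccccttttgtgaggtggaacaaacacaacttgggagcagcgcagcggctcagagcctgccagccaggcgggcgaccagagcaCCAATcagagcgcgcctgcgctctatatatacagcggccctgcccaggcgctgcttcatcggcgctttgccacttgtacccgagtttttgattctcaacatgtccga
HIST1H2AC (chr6:26123922-26124221, plus strand): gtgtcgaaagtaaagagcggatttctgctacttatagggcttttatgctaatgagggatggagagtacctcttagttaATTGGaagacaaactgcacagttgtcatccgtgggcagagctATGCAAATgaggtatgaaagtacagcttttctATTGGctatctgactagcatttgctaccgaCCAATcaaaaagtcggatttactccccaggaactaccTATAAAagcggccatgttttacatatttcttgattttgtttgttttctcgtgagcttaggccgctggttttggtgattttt
HIST1H2AG (chr6:27132793-27133092, plus strand): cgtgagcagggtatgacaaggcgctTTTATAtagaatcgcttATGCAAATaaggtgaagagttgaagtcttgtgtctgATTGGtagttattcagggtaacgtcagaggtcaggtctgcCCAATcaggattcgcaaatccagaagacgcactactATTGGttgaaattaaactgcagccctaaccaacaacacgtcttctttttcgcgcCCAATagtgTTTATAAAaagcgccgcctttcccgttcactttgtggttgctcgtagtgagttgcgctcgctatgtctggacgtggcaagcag
HIST1H2BJ lies next to HIST1H2AG in the RefSeq order of genes, and TATAAA is read on both strands of the HIST1H2AG window. HIST1H1C had 1 CCAAT and none of the other motifs in this window.

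The libraries held 28037392 to 36829479 counts, and 17755 to 18658 genes had at least 1 count. The parental DMSO library stood apart, with the fewest genes detected and a TMM scaling factor of 0.899 against 1.01 to 1.04 in the others. ETV4, the targeted gene, had 19.7 and 28.4 CPM (counts per library size, TMM-scaled) in the parental libraries and 2.42 to 3.41 CPM in the 4 clone libraries. Between genotypes it differed by -3.04 on the log2 scale (SE 0.21, edgeR, Benjamini-Hochberg adjusted p = 0.00868). Epithelial markers were high, with KRT8 at 589 to 1127 CPM and CDH1 at 309 to 494 CPM, while the leukocyte marker PTPRC was at most 0.171 CPM, the stromal marker DCN at most 0.0837 CPM and the endothelial marker PECAM1 at most 0.0686 CPM. The stromal gene COL1A1 stood at 44.8 to 75.2 CPM. A further stromal gene, COL3A1, had 7.93 and 9.73 CPM in parental cells and 1.34 to 3.35 CPM in the clones, a log2 difference of -2.09 (SE 0.38, edgeR, Benjamini-Hochberg adjusted p = 0.117) that passed in DESeq2 (adjusted p = 4.07e-05). A 0 in this table is not absence from the cell: the widely used histone gene H3F3A, which encodes the variant H3.3, is listed at 0 in every library.

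The histone cluster genes took a small part of each library. Parental cells gave 4111 histone counts in DMSO and 3200 in E2, clone 1 gave 3064 and 2254, and clone 2 gave 2929 and 2621. As CPM of the unscaled total this was 124 (95% Wilson interval 120 to 128) for parental cells in DMSO and 86.9 (83.9 to 89.9) in E2. Clone 1 had 86.2 (83.2 to 89.3) and 77.9 (74.7 to 81.2), and clone 2 had 104 (101 to 108) and 92.3 (88.8 to 95.9). These intervals cover counting error only. The parental DMSO library was the highest of the 6 and its interval met no other. The summed CPM after TMM scaling gave the same highest library, at 138, against 77.3 to 100.02 in the other 5. In bulk RNA, fewer cells in S phase and less histone RNA per cell cannot be told apart.

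Most of the signal came from 4 genes, which held 67.5% of the members' counts. HIST1H1C, a linker histone gene, held 32%, and the H2B genes HIST2H2BE and HIST1H2BD held 12.8% and 11.8%. HIST1H2AC, an H2A gene, held 10.8%. The 7 members known to give polyadenylated transcripts, which include these 4, held 71.8% of the counts. By class, H1 genes held 36.7%, H2B 34.3%, H2A 19.1%, H4 8.14% and H3 1.75%. The nucleosome itself holds the 4 core histones in equal numbers. By cluster, HIST1 held 79.4%, HIST2 16.3%, HIST3 3.7% and HIST4, a single H4 gene, 0.64%. Per kilobase of the longest annotated transcript, HIST1H1C had the highest mean level at 47.9 CPM per kb, ahead of HIST1H2BD at 14.4, HIST1H2AC at 6.21, HIST1H1E at 5.98 and HIST2H2BE at 5.60. The last 3 of these lie within 1.5-fold of each other, and their order depends on the annotated length.

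**Figure D1:**
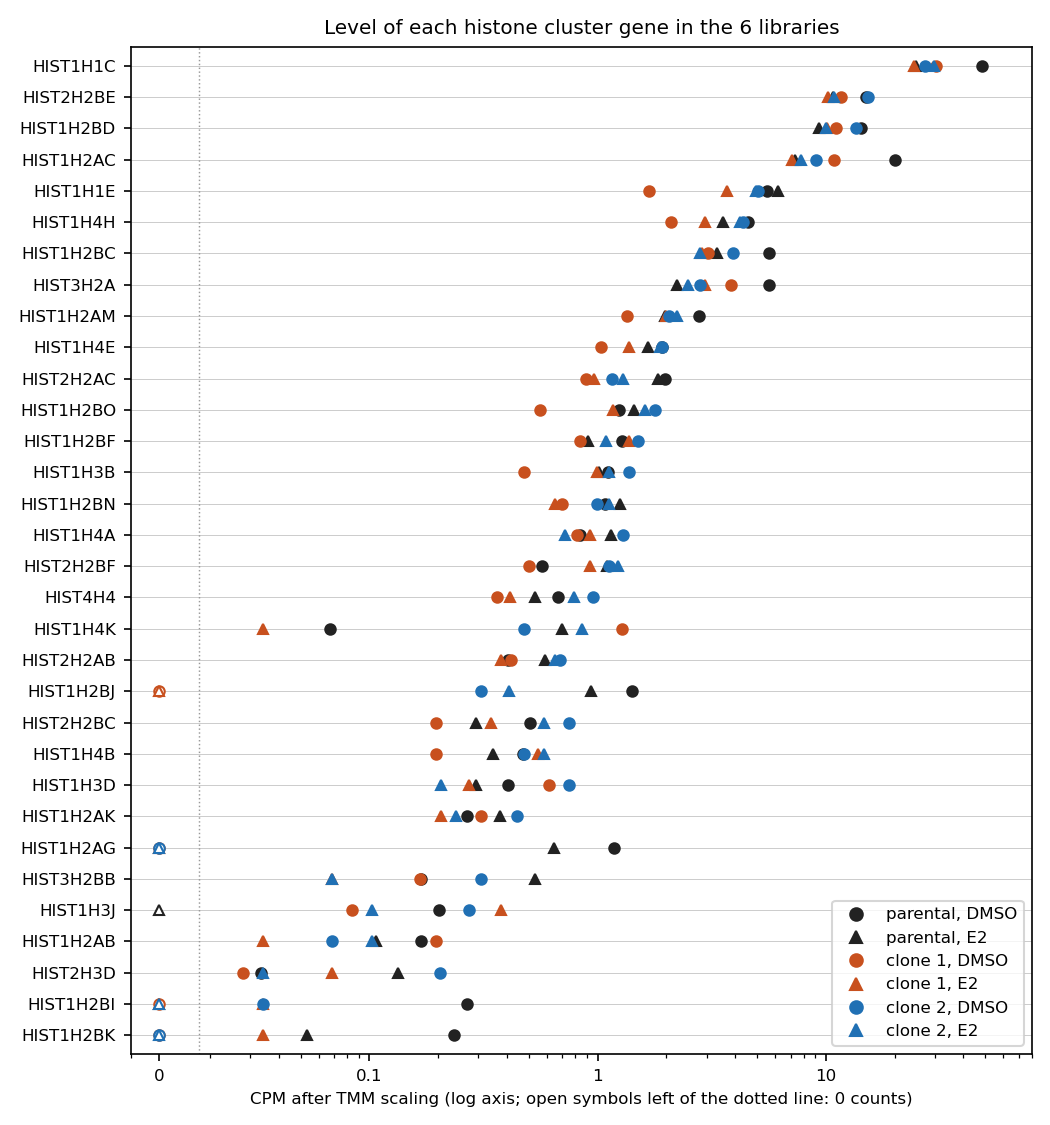
Level of each of the 32 histone cluster genes in the 6 libraries, in CPM after TMM scaling on a log axis, ordered by the mean; circles are DMSO, triangles E2, colours the lines, and open symbols left of the dotted line stand for 0 counts. HIST1H1C lies above all others at 24.2 to 48.3 CPM, 14 genes have a mean of at least 1 CPM, and HIST1H2AG is at 0 in every clone library.

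**Figure D2:**
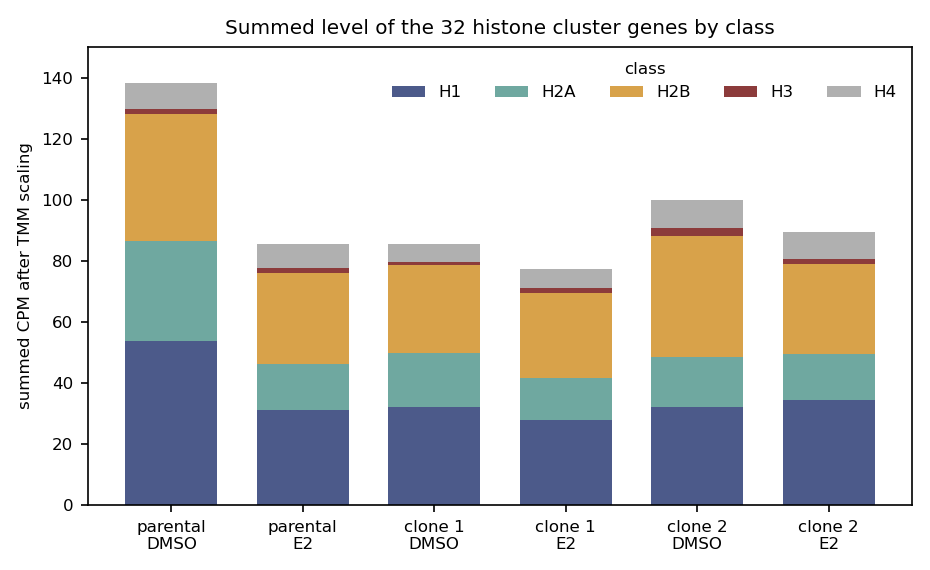
Summed CPM after TMM scaling of the 32 genes in each library (bars), split by histone class. The parental DMSO library reaches 138 CPM and the other 5 libraries lie between 77.3 and 100.02 CPM.

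H1 and H2B genes held the largest shares in every library. H1 genes made up 32.2% to 39.0% of the summed level, H2B genes 30.1% to 39.5% and H2A genes 16.2% to 23.5%. H4 genes made up 6.15% to 10.1% and H3 genes 1.26% to 2.59%. The H2A share was highest in the parental DMSO library and the H2B share in the clone 2 DMSO library. Among the H3 genes, HIST1H3B led with 0.475 to 1.37 CPM, and among the H4 genes HIST1H4H led with 2.09 to 4.54 CPM, ahead of HIST1H4E with 1.03 to 1.92 CPM. The H2A gene HIST1H2AM had 1.34 to 2.79 CPM, but 13.7% of the 50-base stretches of its transcript are unique to it.

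Clones were then compared with the parental line, with treatment in the model, to ask whether loss of ETV4 went with a different level of these transcripts. None of the 28 members that could be tested passed edgeR's quasi-likelihood test at a Benjamini-Hochberg adjusted p of 0.05, where 51 of 15611 genes (0.327%) did. DESeq2 called 0 and limma-voom 1, HIST1H2AG, where over all genes they called 451 of 15405 and 57 of 15611. An unadjusted p below 0.05 was found for 3 members in edgeR and for 11.4% of all genes. The median log2 difference of the members was -0.14, against 0.01 over all genes tested, and 9 of the 28 were above 0. It differed with the clone left out: without clone 2 the median was -0.51 with 4 of 28 above 0, and without clone 1 it was 0.00056 with 14 of 27 above 0. HIST2H2AC, an H2A gene, had 0.893 and 0.960 CPM in clone 1 and 1.16 and 1.30 CPM in clone 2, in DMSO and E2, against 1.98 and 1.84 CPM in the parental line. All 4 clone libraries lay below both parental libraries, and the log2 difference was -0.83 (SE 0.29, edgeR, Benjamini-Hochberg adjusted p = 0.365). HIST1H2AC differed by -0.54 (SE 0.25) and HIST1H2BC, an H2B gene, by -0.47 (SE 0.23), and neither passed the test. In both genes the gap was wider in DMSO than in E2. For HIST1H2AC, clones 1 and 2 differed from parental cells by -0.89 and -1.15 in DMSO and by -0.05 and 0.08 in E2. For HIST1H2BC these values were -0.87 and -0.51 in DMSO and -0.21 and -0.25 in E2. The parental DMSO library, which stood apart, was the highest of the 6 for both. The stromal gene COL3A1 was lower in the clones as well, and its part in these differences was not tested. The arrangement seen for HIST2H2AC, all clone libraries below both parental libraries, was met by 4 of 28 members and by 7.82% of all genes tested. Those members were HIST2H2AC, HIST1H1E, HIST1H2BJ and HIST1H2AG. For the opposite arrangement, met by 0 members, the share of all genes was not counted, so the directions cannot be compared. Without clone 2, when 996 of all genes (6.41%) passed, HIST1H1E did so at -1.20 (SE 0.28, edgeR, Benjamini-Hochberg adjusted p = 5.44e-04). HIST1H2AG and HIST1H2BJ passed there too, but in that fit they had counts in the parental line only.

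HIST1H2AG and HIST1H2BJ, singled out after their values were seen, had the largest differences. HIST1H2AG, an H2A gene, had 35 counts in parental DMSO cells and 24 in parental E2 cells, and 0 in each of the 4 clone libraries. Its pooled parental level was at least 36.2-fold higher than the level that 3 counts over the 4 clone libraries would give. HIST1H2BJ, an H2B gene, had 42 and 35 counts in parental cells, 0 and 0 in clone 1, and 9 and 12 in clone 2. Clone 1 was therefore at 0, clone 2 was between, and the pooled parental level was 6.74-fold the pooled level of the clones. HIST1H2BK, the next histone gene in the RefSeq order, had 7 and 2 counts in parental cells and 0, 1, 0 and 0 in the clones, too few to test. The fitted log2 difference of HIST1H2AG, which depends on the prior count, had an unadjusted p of 0.00118 (edgeR, Benjamini-Hochberg adjusted p = 0.122). In limma-voom its adjusted p was 0.0108, and it passed the edgeR test without clone 1, where 4.09% of all genes did, and without clone 2. All its counts are parental, so it entered these tests only through the group in which it is high, and its p-values are given as a description. HIST1H2BJ did not pass (edgeR, Benjamini-Hochberg adjusted p = 0.402) and, of the alternatives run, passed without clone 2 alone. With clone 2 left out all counts of HIST1H2BJ are parental as well, so that pass is likewise given as a description. The nearest genes on either side with a mean of at least 1 CPM, histone genes aside, were read as well. On the HIST1H2AG side PRSS16 had 17.9 to 27.6 CPM in the clones and 16.4 and 22.1 CPM in the parental line, and POM121L2 0.926 to 1.47 CPM against 0.989 and 1.45. On the HIST1H2BJ side HMGN4 had 129 to 164 CPM in the clones against 127 and 211 CPM in parental cells, and ABT1 32.1 to 36.3 CPM against 37.5 and 51.0 CPM, lower in all 4. ZNF322, on that side too, had 79.3 and 49.8 CPM in clone 1 against 8.58 and 8.95 CPM in clone 2 and 10.3 and 22.7 CPM in the parental line. More than 95% of the 50-base stretches of the HIST1H2AG and HIST1H2BJ transcripts are found in no other gene's transcripts, but under 50% of those of HIST1H2BK are.

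**Figure D3:**
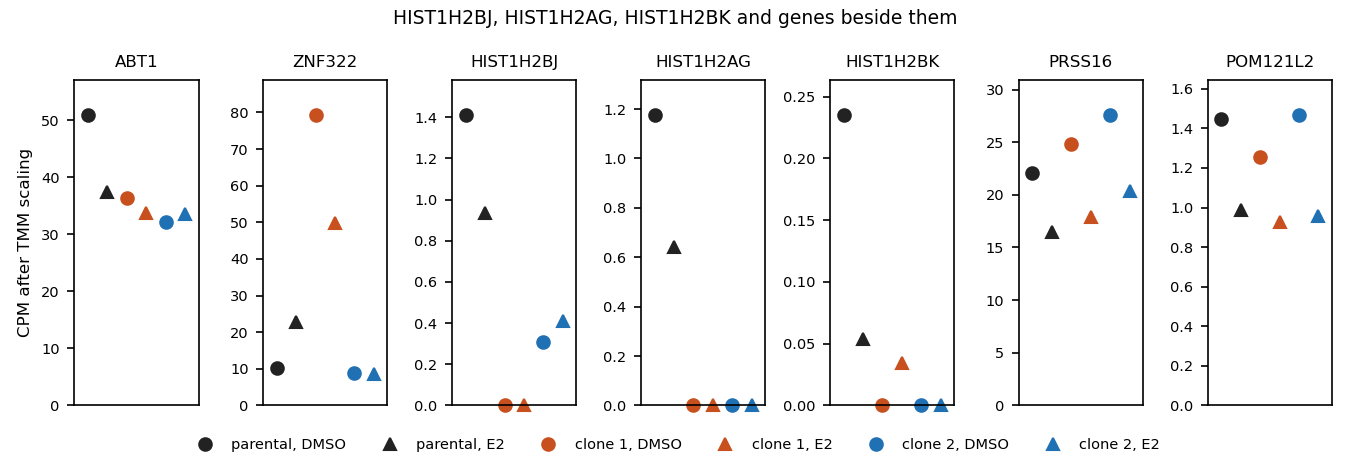
CPM after TMM scaling in each library (symbols; each panel has its own axis from 0) for HIST1H2BJ, HIST1H2AG and HIST1H2BK and for genes beside them, in genome order. HIST1H2AG is at 0 in all 4 clone libraries and HIST1H2BJ is at 0 in both clone 1 libraries, while PRSS16 and POM121L2 overlap between clones and parental line.

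E2 was compared with DMSO over all 3 lines, adjusting for genotype, which asks whether these transcripts follow the hormone. None of the 28 members passed, where 176 genes (1.13%) did by the same test. DESeq2 and limma-voom also called 0 members, where over all genes they called 1111 of 15006 and 174 of 15611. An unadjusted p below 0.05 was found for 4 members in edgeR and for 20.4% of all genes. The members' median log2 change was -0.09, against -0.02 over all genes tested. It was -0.22 without clone 1 and 0.00024 without clone 2, and 0.03 when each library's trend over GC content and transcript length was removed, an alternative chosen after seeing the data. HIST1H2AC went from 20.1 to 7.35 CPM in parental cells, from 10.8 to 7.10 CPM in clone 1 and from 9.02 to 7.79 CPM in clone 2. Every DMSO library lay above every E2 library, and the log2 change was -0.76 (SE 0.25, edgeR, Benjamini-Hochberg adjusted p = 0.182). HIST1H2BD had 14.2, 11.1 and 13.5 CPM in DMSO and 9.35, 10.1 and 9.98 CPM in E2, in the order parental, clone 1, clone 2. HIST2H2BE had 15.0, 11.6 and 15.3 CPM in DMSO and 10.8, 10.2 and 10.8 CPM in E2. In both genes the DMSO and E2 libraries did not overlap, both had a log2 change of -0.40 (SE 0.16), and neither passed the test. All E2 libraries lay below all DMSO libraries in 4 of the 28 members, these 3 and HIST1H3D, and in 10.7% of all genes tested. HIST1H3D, an H3 gene chosen after its values were seen, had a log2 change of -1.14 (SE 0.42) at 6 to 22 counts per library. Without clone 2, when 3353 of all genes (21.6%) passed, so did HIST1H1C at -0.64, HIST1H2AC at -1.04 and HIST3H2A at -0.86 (edgeR, Benjamini-Hochberg adjusted p = 0.00595, 4.33e-05 and 0.0176). The epithelial markers KRT8 and KRT18 were called lower with E2 by DESeq2, at -0.69 and -0.67, and their part in the members' changes was not tested.

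A lower level in E2 in each of the 3 lines was found in 6 of the 28 members, HIST2H2BE, HIST3H2A, HIST1H2BC, HIST1H2AC, HIST1H2BD and HIST1H3D, and in 25.2% of all genes tested. A higher level in each line was found in 1 member, and the share of all genes for that direction was not counted. The 6 tested members known to give polyadenylated transcripts all had a negative fitted change, with a median of -0.40. None of those 6 passed the test.

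In the clones alone, 0 of 23 members tested passed for E2 against DMSO, where 49 of 14881 genes (0.329%) did by the same test. DESeq2 and limma-voom also called 0 members, where over all genes they called 312 of 14649 and 38 of 14881. An unadjusted p below 0.05 in edgeR was found for 1 member, HIST1H3D, and for 8.7% of all genes. With clone as a replicate block, 2227 genes (15%) and 1 member passed. That member, HIST1H3D, had a log2 change of -1.49 (SE 0.50, edgeR, Benjamini-Hochberg adjusted p = 0.0227). The p-values of that block fit use a spread shared by all genes, not each gene's own. HIST1H3D is also a gene of few counts. Its counts went from 22 to 8 in clone 1 and from 22 to 6 in clone 2. It also shares every 50-base stretch of its transcript with other genes' transcripts, so its counts are uncertain. Without the clone 2 E2 library, where 191 of 15177 genes (1.26%) passed, HIST1H4K was the 1 member to pass, at -4.55 (SE 1.24, edgeR, Benjamini-Hochberg adjusted p = 0.0228).

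Line by line, the E2 change of the members had a median log2 value of -0.36 for the parental cells, 0.05 for clone 1 and -0.15 for clone 2. There is no test for a single line. A change of at least 2-fold downward was seen in 3 of 28 members in the parental line, HIST1H2AC, HIST3H2A and HIST1H3J, against 5.03% of all genes. At least 2-fold upward changes numbered 2, HIST1H4K and HIST3H2BB, against 11.3%. In clone 1 there were 2 lower and 3 higher, where 2.08% and 3.97% of all genes were, and in clone 2 there were 3 lower and 0 higher, where 2.63% and 3.89% were. HIST1H1C went from 48.3 to 24.9 CPM in parental cells, from 30.3 to 24.2 CPM in clone 1 and from 27.2 to 29.6 CPM in clone 2. The parental DMSO library was the one high value, and the other 5 lay between 24.2 and 30.3 CPM. HIST3H2A, an H2A gene, had 5.61 CPM in that library and 2.22 to 3.85 CPM in the other 5. HIST1H1E, the other H1 gene, went from 1.67 to 3.70 CPM in clone 1, from 5.55 to 6.15 CPM in the parental line and from 5.05 to 4.92 CPM in clone 2.

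Other gene lists were summed in the same libraries, and their part in the result was not tested. The summed level of 12 replication-independent histone variants was 4195 CPM there and 2821 to 3179 CPM in the other 5 libraries. For 15 S-phase genes the sums were 2614 CPM and 2291 to 2534 CPM, and the genes did not move together. Of the 15, 6 were highest in the parental DMSO library, among them PCNA, the sliding clamp of DNA polymerase, with 487 CPM against 267 to 330 CPM, and RRM2, a subunit of ribonucleotide reductase, with 398 CPM against 218 to 283 CPM. Another 4 were lowest there, the helicase subunits MCM2, MCM3 and MCM4 and the transcription factor E2F1. The epithelial markers summed to 3201 CPM in the parental DMSO library and to 2289 to 3197 CPM in the other 5. The lists that follow were highest elsewhere. Histone RNA processing genes summed to 1463 CPM in parental DMSO cells and reached 1564 CPM in parental E2 cells, histone chaperones to 3388 CPM and 3634 CPM in clone 1 with E2, and RNAs without a poly(A) tail to 4.10 CPM and 4.41 CPM in clone 2 with E2. The members' transcripts had a median GC content of 53.2%, against 48.6% over all genes tested. With that GC content and length correction the parental median turned from -0.36 to 0.24, and 7 rather than 19 of the 28 members were below 0. HIST1H1C then stood at -0.37, HIST1H2AC at -0.81 and HIST3H2A at -0.83 in the parental line, while HIST1H2BD turned to 0.16 and HIST1H2BC to 0.07. With total counts in place of TMM, the parental E2 change of all genes shifted by 0.18 at the median and the members' median was -0.20.

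**Figure D4:**
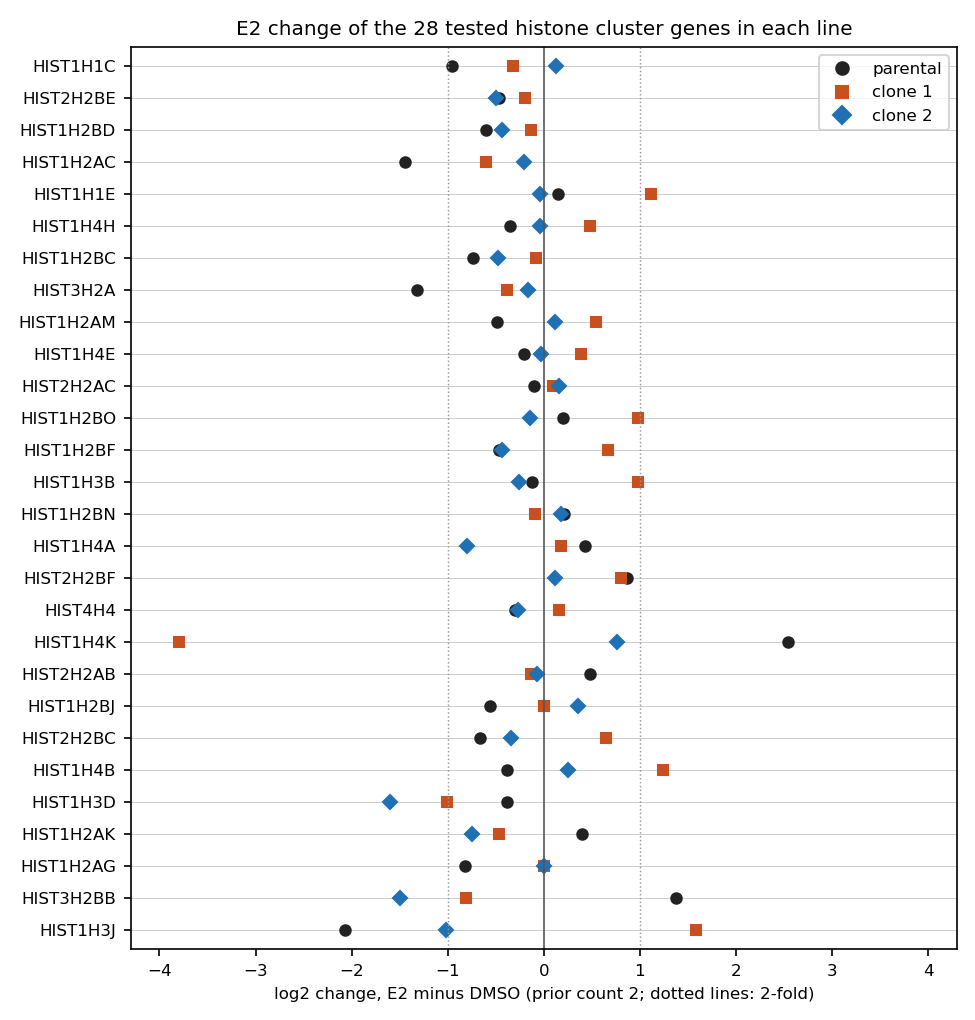
The log2 change from DMSO to E2 (prior count 2) of the 28 tested members in the parental line (circles), clone 1 (squares) and clone 2 (diamonds), ordered by mean level, with dotted lines at 2-fold. Among the 12 most abundant genes, HIST1H2AC and HIST3H2A lie lowest in the parental line, at -1.44 and -1.32, and the wide spread of HIST1H4K rests on 1 to 46 counts.

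Whether the E2 change differed between genotypes was tested by the interaction. None of 28 members and none of 15611 genes (0%) passed by the same test. limma-voom called 0 members and 0 of 15611 genes, and DESeq2 gave no adjusted p for the members. An unadjusted p below 0.05 in edgeR was found for 3 members and for 7.62% of all genes. The median interaction of the members was 0.33, against -0.04 over all genes, with 20 of 28 above 0. After the GC content and length correction the median turned to -0.27, with 10 of 28 above 0. It was -0.03 without the clone 1 DMSO library, 0.09 without the clone 2 E2 library and 0.85 without the clone 2 DMSO library. HIST1H1C had 0.86 (SE 0.29) and HIST1H2AC 1.04 (SE 0.36), and neither passed (edgeR, Benjamini-Hochberg adjusted p = 0.617 for both). With line as a replicate block, 2470 genes (15.8%) and 5 members passed. The E2 change of HIST1H1C, HIST1H2AC and HIST3H2A was less negative in the clones than in parental cells, by 0.86, 1.04 and 1.05 (edgeR, Benjamini-Hochberg adjusted p = 0.00215, 0.00268 and 0.0344). HIST1H4K, an H4 gene, and HIST3H2BB, an H2B gene, passed in the other direction at -4.36 and -3.37. In that fit 1 parental library per treatment enters, and its p-values use one spread for all genes together. After the GC content and length correction with the same block, 11.7% of all genes passed and, of the members, HIST1H4K and HIST3H2BB, and HIST1H1C had 0.30, HIST1H2AC 0.46 and HIST3H2A 0.61. Without the clone 2 E2 library and with no block, where 38 of 15637 genes (0.243%) passed, HIST1H4K was the 1 member to pass, at -7.85 (SE 1.68, edgeR, Benjamini-Hochberg adjusted p = 0.00269). In that fit the spread comes from the DMSO libraries of the clones alone, and the single libraries of the other groups are assumed to vary like them.

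HIST1H4K and HIST3H2BB rest on few counts. HIST1H4K had 2 and 26 counts in parental cells, 46 and 1 in clone 1, and 14 and 25 in clone 2, in DMSO and E2. High and low values occurred under both treatments and in both genotypes, and 0% of the 50-base stretches of its transcript are unique to it. HIST3H2BB had 5 and 20 counts in parental cells, 6 and 2 in clone 1, and 9 and 2 in clone 2. The parental E2 library was its highest. In all, 6 of the 32 members and 11 of the 41 rows under 10 counts had under 50% unique stretches. Of the 20 rows at 0, 8 were under 50% and 12 were at 95% or more.

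The clones were compared with each other with treatment in the model, so that the DMSO and E2 libraries of a clone stand in as its replicates. The p-values and standard errors of this fit use a spread shared by all genes, not each gene's own. Of 23 members tested, 5 were called, all higher in clone 2 (21.7%), where 2723 of 14881 genes (18.3%) were called and 1520 (10.2%) were higher in clone 2 by the same test. The share called is near that of all genes. An unadjusted p below 0.05 was found for 8 members and for 30.4% of all genes. HIST1H1E had 1.67 and 3.70 CPM in clone 1 and 5.05 and 4.92 CPM in clone 2, in DMSO and E2. Its log2 difference was 0.97 (SE 0.22, edgeR, Benjamini-Hochberg adjusted p = 1.54e-04). HIST1H4H had 2.09 and 2.95 CPM in clone 1 and 4.34 and 4.20 CPM in clone 2, a log2 difference of 0.78 (SE 0.22). The H2B gene HIST1H2BO differed by 1.03 (SE 0.31), the H4 gene HIST4H4 by 1.18 (SE 0.42) and HIST2H2BC, which RefSeq lists as a pseudogene, by 1.34 (SE 0.49). For these genes, called on the same values, both clone 2 libraries lay above both clone 1 libraries. The share of all genes with this arrangement was not counted, so it adds nothing to the calls. None of the 5 passed without treatment in the model, where 104 of 14881 genes did. In DESeq2, which called 1005 of 14259 genes, HIST2H2BC had no adjusted p and none of the other 4 passed.

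The order of the clones changed with treatment in some abundant members. HIST1H1C was higher in clone 1 in DMSO and higher in clone 2 in E2, and HIST1H2AC likewise, while HIST2H2BE was higher in clone 2 under both treatments. In all, 21 of the 23 fitted differences were above 0, with a median of 0.41 against 0.01 over all genes. The median difference between the clones was 0.63 in DMSO, with 19 of 23 above 0, and 0.29 in E2, with 17 of 23 above 0. NPAT, the transcriptional coactivator of these genes, was higher in clone 2 as well, by 0.67 (SE 0.13), at 30.1 and 35.4 CPM in clone 1 and 54.1 and 49.4 CPM in clone 2. SLBP, the stem-loop binding protein, had a difference of -0.35 (SE 0.13, edgeR, Benjamini-Hochberg adjusted p = 0.0518). Some other genes moved the same way, with the stromal genes COL1A1 and COL3A1 higher in clone 2 by 0.46 and 1.03 and the epithelial gene CDH1 by 0.53. Of the 6 epithelial genes 4 had a positive fitted difference, and CDH1 alone passed. The other 2 were negative, KRT18 at -0.22 and KRT8 at -0.08. The part of these stromal and epithelial genes in the members' difference was not tested.

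**Figure D5:**
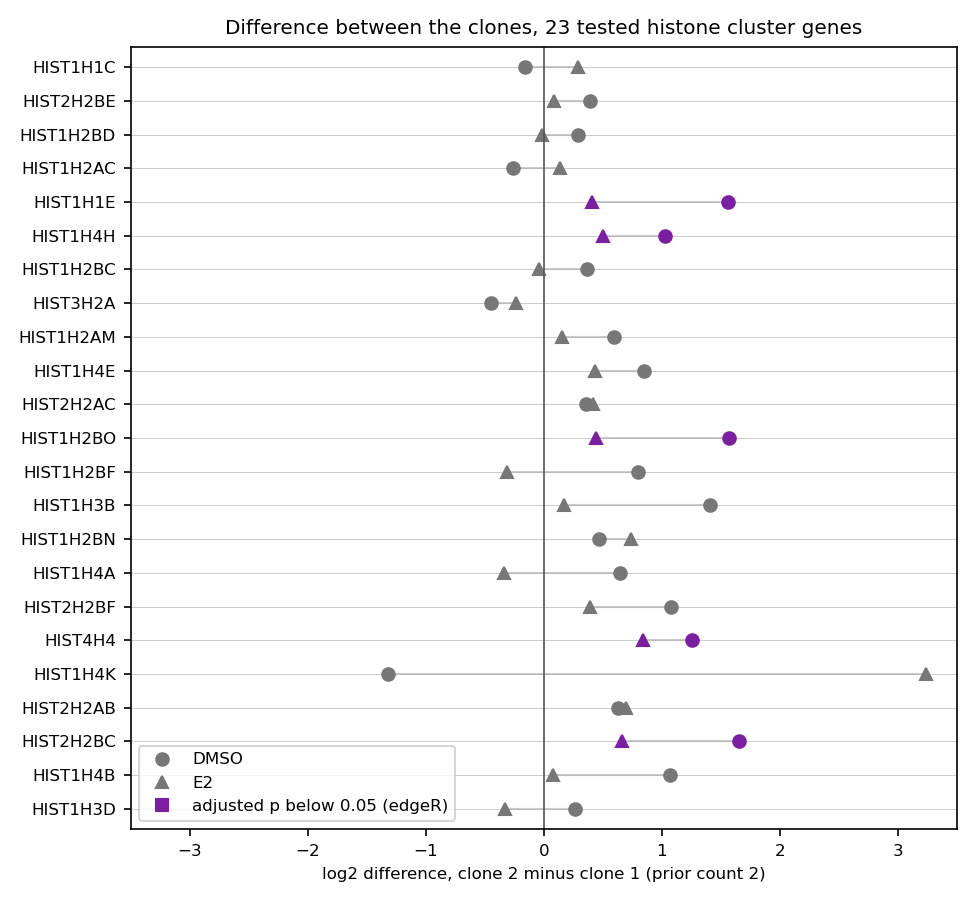
The log2 difference between clone 2 and clone 1 (prior count 2) for the 23 tested members, in DMSO (circles) and in E2 (triangles), with the 5 called members in purple. Most points lie right of 0, and the difference is larger in DMSO for most of the called members, as for HIST1H1E at 1.56 and 0.40.

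Genes that act on histone RNA or stand in for these histones were read in the same 5 comparisons. Over all genes the shares passing were 0.327% (knockout), 1.13% (E2), 0.329% (E2 in the clones), 0% (interaction) and 18.3% (between the clones). Of 16 genes of histone RNA processing and transcription, 0 passed for the knockout, for E2, for E2 in the clones or for the interaction, and 1, NPAT, passed between the clones. Among them SLBP had 133 CPM in parental DMSO cells and 94.4 CPM in parental E2 cells, 121 and 105 in clone 1 and 88.4 and 87.4 in clone 2. NCBP2, a cap-binding subunit, had 184 to 225 CPM and SRRT, which links the cap to RNA maturation, 162 to 243 CPM. The variants H3F3B and H2AFZ, which encode H3.3 and H2A.Z, had 995 to 1436 CPM and 646 to 1127 CPM. Of the 10 variants tested, all had a negative fitted E2 change, with a median of -0.28, and 0 passed. Between the clones 1 variant passed, the linker histone gene H1F0, with a log2 difference of 0.41 (SE 0.14). Of 16 histone chaperones 1 passed between the clones, CHAF1A, a subunit of chromatin assembly factor 1, with 0.34 (SE 0.13, edgeR, Benjamini-Hochberg adjusted p = 0.0466), and 0 passed in the other comparisons. CHAF1A did not pass in limma-voom (adjusted p = 0.0685) or DESeq2 (adjusted p = 0.176), and DESeq2 called NAP1L1 there, at -0.37. The most abundant chaperones, NAP1L1 and SSRP1, had 530 to 833 CPM and 368 to 426 CPM. Of 15 S-phase genes 0 passed in any of the 5 comparisons, and MCM4, a subunit of the replicative helicase, had 295 to 340 CPM. At an unadjusted p below 0.05, edgeR held 0 processing genes for the knockout, for E2 and for E2 in the clones, and 2 for the interaction. It held 2, 2, 1 and 1 variants, 0, 4, 2 and 0 chaperones and 1, 0, 0 and 2 S-phase genes for the same 4 comparisons, in which limma-voom called 0 genes of these lists. Between the clones it held 5 processing genes, 2 variants, 4 chaperones and 2 S-phase genes. There limma-voom and DESeq2 each called 1 processing gene and 1 variant, and 2321 of 14881 and 1005 of 14259 genes in all. Over all genes tested in edgeR, an unadjusted p below 0.05 was found for 11.4%, 20.4%, 8.7% and 7.62% in those 4 comparisons. Between the clones it was found for 30.4%. DESeq2 called H1F0 for the knockout at -0.74 and H1FX for E2 at -0.55. It called the chaperone NAP1L4 for E2 at 0.66 and in the clones at 0.61, and PCNA for the interaction at 0.91. Over all genes DESeq2 called 451 of 15405 for the knockout and 1111 of 15006 for E2. It called 312 of 14649 for E2 in the clones and 56 of 1030 for the interaction. With the replicate block, calls for E2 in the clones numbered 2 variants lower and 2 chaperones higher, where 15% of all genes passed. For the interaction they numbered 1 processing gene in each direction, 1 chaperone lower and 2 S-phase genes higher, where 15.8% did.

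RNAs that carry no poly(A) tail at all were read in the same libraries for comparison. Of 12 such RNAs listed, 5 were in the table, and their summed level was 2.54 to 4.41 CPM per library. RPPH1, the RNA of RNase P, had 1.20 to 2.39 CPM, and RMRP, the RNA of RNase MRP, 0.726 to 1.57 CPM. SCARNA2, a small Cajal body RNA, was the 1 of these that passed between the clones, where 18.3% of all genes did. It was higher in clone 2 by 2.34 (SE 0.52). Outside the 7 genes known to give polyadenylated transcripts, the other 25 histone members summed to 18.6 to 33.3 CPM per library. Without the 4 most abundant genes, the members' summed E2 change was -0.29 for parental cells, 0.24 for clone 1 and -0.16 for clone 2, against -0.90, -0.31 and -0.16 for those 4.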

How the data were processed

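RNA-seq was analysed in 6 libraries from 3 Ishikawa lines, the 2 knockout clones forming 1 group and the parental line the other, each in DMSO and E2. The authors deposited whole-number read counts per gene symbol. Per the labels' protocols the libraries were poly(A)-selected with a stranded kit, and per the submitters' processing notes HISAT2, SAMtools, Subread, DESeq2 and the build hg19 were used. Versions, the annotation and the use of strand in counting are not given in the sources used here, so overlapping and near-identical genes are uncertain. A normalized table was deposited as well and was not used.

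Counts were tested in R 4.3.3 with edgeR 4.0.16 (TMM, filterByExpr, quasi-likelihood F test, Benjamini-Hochberg p over all genes, threshold 0.05), which kept 28 of the 32 members (23 for the clones alone). A standard error is the log2 coefficient over the root of F. DESeq2 1.42.0, limma-voom 3.58.1, other scalings and filters, a replicate block, omission of lines or libraries, and an added correction for GC content and length were alternatives. Log2 values of single lines used a prior count of 2. The fits were tested on simulated data. The knockout and E2 fits treat the libraries of 1 line as independent. Uniqueness is the share of 50-base stretches of a gene's GENCODE v29 transcripts found in no other gene.

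Each clone number marks 1 clone in both treatments, so libraries pair by line. The difference between the clones correlated between treatments at 0.626 over 15611 genes and at 0.0202 over the 28 members tested. The members' value includes genes of few counts. HIST1H4K differed by -1.32 in DMSO and 3.24 in E2, HIST1H3J by 1.20 and -1.41, and HIST1H2AG was at 0 counts in every clone library. It therefore does not settle whether the members' clone differences recur between treatments. The named members are the 12 with the highest mean CPM, the leader of each class, every member called, and the 4 with the largest change per test among those of at least 1 CPM, 15 in all. ETV4, SLBP, NPAT and the called or most abundant genes of the other lists are named too. Members and lists were chosen with earlier results of these data known.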

Additional observations from a re-analysis of the deposited data

Results flagged for a closer look

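With line as a replicate block, 5 histone cluster genes had an E2 change that differed between the clones and the parental line. The differences were 0.86 for HIST1H1C, 1.04 for HIST1H2AC and 1.05 for HIST3H2A, and each of these had its highest level in the parental DMSO library. The differences were -4.36 for HIST1H4K and -3.37 for HIST3H2BB, which had 1 to 46 and 2 to 20 counts per library. Without the block none of the 5 passed with all 6 libraries, and HIST1H4K passed without the clone 2 E2 library, at -7.85.

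Among the named members, another pair went down with E2 in the parental line and up in both clones. These differences were not tested beyond the interaction, which neither passed. The share of all genes with this pattern was not counted. HIST1H4B, a tested member outside the named ones, had the same pattern, at -0.38 in parental cells, 1.24 in clone 1 and 0.25 in clone 2. HIST1H2AM changed by -0.48 in parental cells, 0.55 in clone 1 and 0.11 in clone 2 on the log2 scale. HIST2H2AC changed by -0.10, 0.10 and 0.15, and its parental value turned to 0.07 with total counts in place of TMM.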

How the results depend on the processing

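For members called, the knockout comparison gave 0 in the main analysis. It gave 1 (HIST1H2AG) in limma-voom, where 57 genes passed, and also with line as a random replicate block there, where 46 did. It gave 1 to 3 when a clone was left out, with 3 in the absence of clone 2. Among those 3, HIST1H2AG and HIST1H2BJ had counts in the parental line only. The E2 comparison gave 0 under every scaling, filter, tool and block run, and 0 to 3 when a line was left out, with 3 in the absence of clone 2. For E2 in the clones the replicate block gave 1 (HIST1H3D), and leaving out a library gave 0 to 1. For the interaction the replicate block gave 5, the block with the GC content and length correction 2, and leaving out a library 0 to 1. Between the clones DESeq2 and the model without treatment each gave 0 in place of 5, where 1005 and 104 genes passed in place of 2723. HIST1H1E had an E2 change in the clones that ran from -0.25 to 1.36 when a library was left out, and it turned negative without the clone 1 DMSO library. The block changed no other call among the named genes.

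At a threshold of 1.5-fold rather than 2-fold, 8 of 28 members were lower in E2 in the parental line. In clone 1 there were 4 lower and 8 higher, and in clone 2 there were 5 lower and 1 higher. Of all 15611 genes tested, 2939 were lower in the parental line at that threshold. In clone 1 there were 1082 genes lower and 1519 higher, and in clone 2 there were 1168 lower and 1424 higher. At 2-fold, the correction for GC content and length left 1 member lower in the parental line, where 481 genes were. It left 1 member lower and 5 higher in clone 1, where 310 and 610 genes were, and it turned the parental median to 0.24. In clone 1 a prior count of 5 gave 1 member lower, where 202 genes were. A prior count of 0.5 gave 5 members higher, where 716 genes were.

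The summed E2 change was -0.69 for parental cells, -0.15 in clone 1 and -0.16 in clone 2. It kept its sign under the settings run, but not in clone 1 once the 4 most abundant genes were left out. With total counts it was -0.52 in the parental line and -0.18 in clone 2, and the clones' difference from the parental line in DMSO was -0.39 in place of -0.58. With median-ratio scaling it was -0.16 in clone 1 and -0.15 in clone 2, and with members of 100 or more counts -0.14 in clone 2. Without HIST1H1C it was -0.57, -0.058 and -0.28 in the 3 lines, and without the 4 most abundant genes it was -0.29, 0.24 and -0.16. The causes were not tested. Depth kept 4 members, with 10 to 22 counts in all, out of the tests.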
